A study of Homo sapiens with 36 samples.

Results

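Genes for 8 transcription factors of the prostate lineage and of neuroendocrine change were followed in 4 human prostate cancer (PCa) cell lines: FOXA1, HOXB13, GATA2, GATA3, GRHL2, TP63, SOX2 and SOX9. The rule listed them by name, and they were 8 of the 27852 genes with a symbol in the table. C4-2 and its bone-derived subline C4-2B stood for osteoblastic bone metastatic prostate cancer (BPCa), and DU145 and 22Rv1 stood for the osteolytic form (LPCa). Each line was grown in mono-culture without RANKL (n = 3), in co-culture with MG63, a human osteosarcoma line used in place of osteoblasts (n = 2), in mono-culture with 50 ng/mL recombinant mouse RANKL (n = 2), and in co-culture with RAW264.7 mouse macrophages in the presence of the same RANKL (n = 2), which gave 16 groups and 36 samples. RNA was taken from the cancer cells on day 5, and the partner cells sat behind a filter in a joined well. All 4 are established lines, so each group is a model of 1 line and not of a patient group. The labels do not say whether the libraries of a group came from separate cultures, so the p-values measure only the spread between these samples, which may be technical.

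FOXA1 is a pioneer factor that opens chromatin for other factors, and HOXB13 and GATA2 bind with it at the enhancers of luminal prostate genes. GATA3 is a luminal factor of breast and prostate epithelium, and GRHL2 maintains epithelial junction genes such as CDH1. TP63 encodes p63, the master factor of basal epithelium, whose shorter ΔN form starts at an internal promoter. SOX2 is a pluripotency factor known in neuroendocrine prostate cancer, and SOX9 is a factor of prostate budding and of cartilage that is also used in tumours.

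Levels are given in CPM, the counts of a gene per 1000000 counts of the library. The mono-cultures without RANKL held between 23932472 and 36719047 counts and the 24 other libraries between 9593426 and 15418211. The detection limit, taken as 3 counts in each library, therefore equalled at most 0.125 CPM in the first set and at most 0.313 CPM in the second. Every comparison of a co-culture or of RANKL with these mono-cultures also compares libraries of different depth. When these mono-cultures were thinned at random to the median total of the other libraries, 2 calls of the members with MG63 or RANKL were lost, both in C4-2B, and any other difference between the 2 sets of libraries cannot be told apart from the culture. The pair of DU145 and MG63 co-cultures correlated with r = 0.960 over all genes, and the replicates of every other group with r of at least 0.991. Differences are log2 fold changes ± SE from edgeR's quasi-likelihood test, and a gene was called at a Benjamini-Hochberg adjusted p under 0.05 over all genes tested. FOXA1, HOXB13, GATA2, GATA3, GRHL2 and SOX9 passed the minimum of 100 counts in at least 1 sample, whereas TP63 and SOX2 did not and were not tested. GATA3 passed it through 22Rv1 libraries alone, so its higher level there was needed for it to be tested at all.

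FOXA1, HOXB13 and GATA2 were abundant in C4-2, C4-2B and 22Rv1. DU145 had far less FOXA1 and GATA2 and only a trace of HOXB13. FOXA1 (chr14:37589984-37596059, minus strand, GRCh38) stood at 257, 258 and 265.03 CPM in C4-2 mono-cultures, 247, 244 and 266 in C4-2B, and 268, 289 and 274 in 22Rv1. These 3 lines lay close together, with differences of 0.00 ± 0.06 for C4-2B minus C4-2 and 0.04 ± 0.06 for 22Rv1 minus either line, none of them called. With RANKL in all lines, 22Rv1 was 0.16 above C4-2 (adjusted p = 0.0291) and 0.34 above C4-2B (adjusted p = 4.59e-05). DU145 had 34.3, 36.7 and 37.0 CPM, below every library of the other lines, a difference of −2.88 ± 0.07 from C4-2 (adjusted p = 7.05e-16).

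HOXB13 (chr17:48724763-48729178, minus strand), the posterior homeobox factor of the prostate, was graded in the 3 lines that made it. It stood at 101, 108 and 104 CPM in 22Rv1, 129, 128 and 131 in C4-2, and 156, 158 and 161 in C4-2B mono-cultures, without overlap between the lines. C4-2B exceeded C4-2 by 0.34 ± 0.07 (adjusted p = 0.00325) and 22Rv1 minus C4-2 was −0.36 ± 0.07 (adjusted p = 0.000214). DU145 had 0.379, 0.404 and 0.316 CPM, above the detection limit in every library but no more than a trace, a difference of −8.47 ± 0.12 from C4-2 (adjusted p = 2.62e-18). HOXB5, HOXB8 and HOXB9 of the same cluster, named for their change in a culture comparison, did not share this pattern. Levels of the other listed HOXB genes are not reported here. HOXB5 had a median of 9.55 CPM in DU145 against 1.25 in C4-2, HOXB8 4.83 against 0.346, and HOXB9 7.65 against 4.32, over the 9 libraries of each line.

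GATA2 followed the order C4-2B, C4-2, 22Rv1 and DU145. It stood at 264, 259.5 and 270.1 CPM in C4-2B mono-cultures, 239.5, 236 and 235 in C4-2, 143, 144.9 and 143 in 22Rv1, and 33.5, 31.4 and 29.4 in DU145. No line overlapped another. C4-2B minus C4-2 was 0.20 ± 0.06 (adjusted p = 0.0441), a call that was lost in 13 of the 20 fits that each left out 1 sample. 22Rv1 minus C4-2 was −0.77 ± 0.06 (adjusted p = 1.84e-08) and DU145 minus 22Rv1 was −2.17 ± 0.07.

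**Figure D1:**
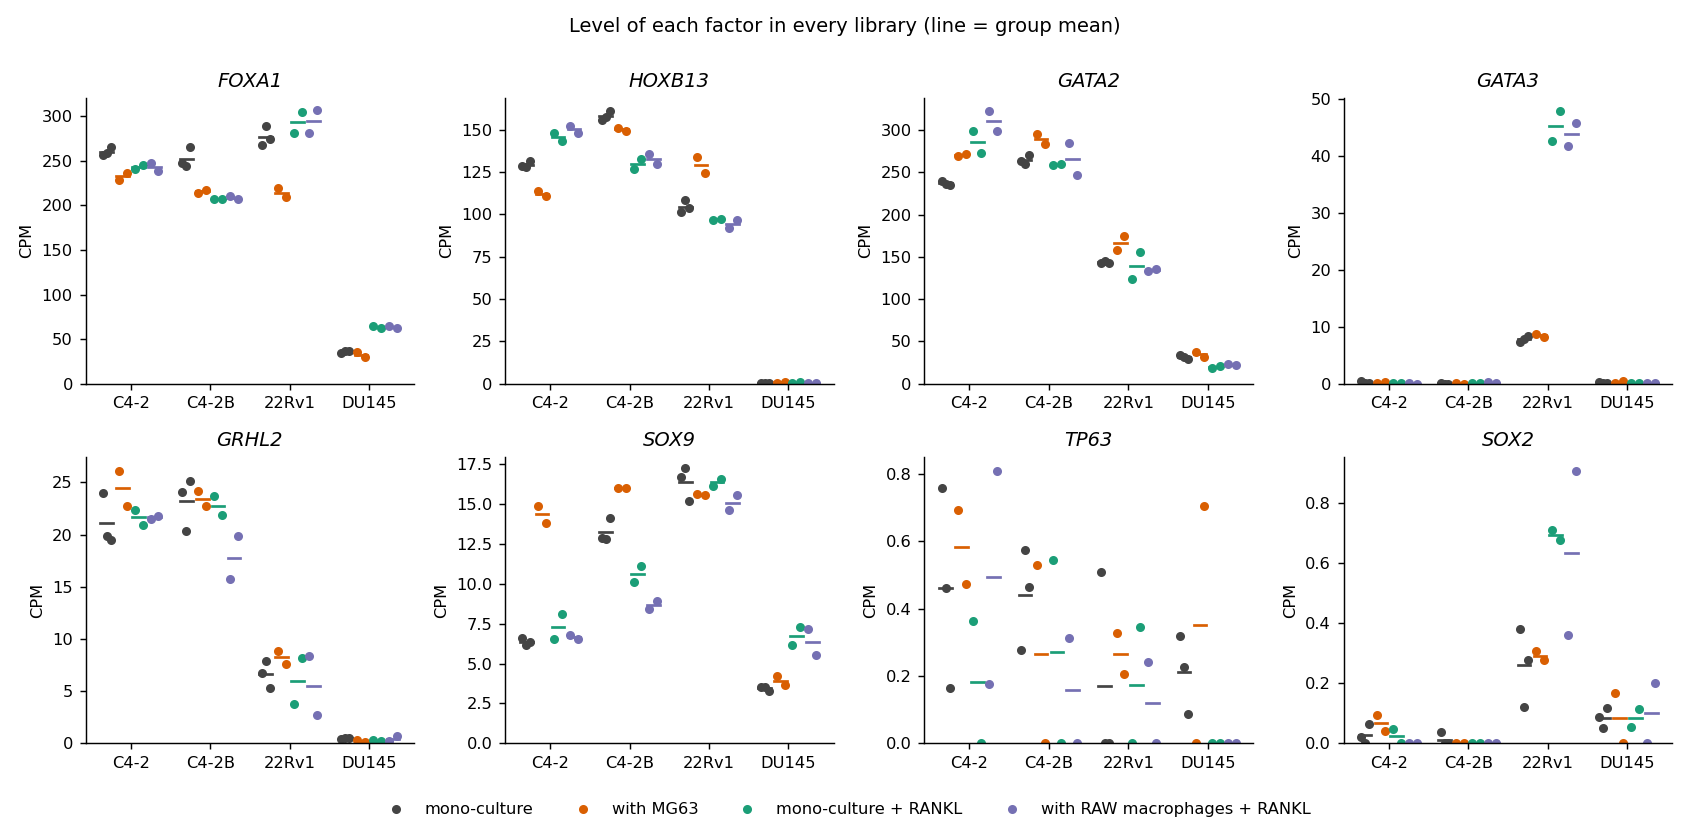
Level of each of the 8 genes in all 36 samples, in CPM on a linear axis from 0, by cell line and culture, where each point is 1 sample and each line a group mean. FOXA1, HOXB13 and GATA2 are high in 3 lines and low in DU145, GATA3 is above 2 CPM in 22Rv1 only, and TP63 and SOX2 stay under 1 CPM in every sample.

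GATA2 (chr3:128479427-128493185, minus strand) has 6 transcripts in the table. GATA2-201 and GATA2-206 start at the distal start, GATA2-203 at the middle and GATA2-202 at the proximal one, while GATA2-204 and GATA2-205 start elsewhere and hold the rest of the counts. The share of GATA2 counts at the distal start separated 22Rv1 from the BPCa lines. The 250 bases before the distal and the middle starts are printed because counts were divided between them. They are read 5′ to 3′ on the gene's strand from RefSeq on GRCh38.p14, at chr3:128493202-128493451 and chr3:128488531-128488780, with every CG dinucleotide, which reads the same on both strands, in capitals.
GATA2 distal start: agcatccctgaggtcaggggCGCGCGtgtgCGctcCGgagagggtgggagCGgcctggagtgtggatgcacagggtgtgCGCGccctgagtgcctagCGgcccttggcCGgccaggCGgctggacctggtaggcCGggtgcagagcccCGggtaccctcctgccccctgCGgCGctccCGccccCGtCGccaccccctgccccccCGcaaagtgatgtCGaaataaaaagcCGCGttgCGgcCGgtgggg
GATA2 middle start: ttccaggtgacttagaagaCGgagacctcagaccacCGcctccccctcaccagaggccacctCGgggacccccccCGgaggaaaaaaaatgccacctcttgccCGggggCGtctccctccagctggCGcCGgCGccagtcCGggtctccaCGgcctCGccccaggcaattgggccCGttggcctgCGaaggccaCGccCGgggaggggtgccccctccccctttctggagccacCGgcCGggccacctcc
The distal window held 24 CG dinucleotides and the middle one 18. Of 34943 promoter windows in the same table, 78.4% held as many as the distal window or fewer, and 65.4% as many as the middle one or fewer, against a median of 11 per window. The distal start is 16 bases from the annotated start of GATA2-201.

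The distal start held a median of 46.5% of GATA2 counts over the 9 libraries of 22Rv1 (range 42.06 to 51.5%), 56.6% in C4-2 (55.4 to 58.7%) and 59.8% in C4-2B (56.0 to 62.4%). Every 22Rv1 library was below every C4-2 and C4-2B library. DU145 had a median of 55.1% and a range of 41.8 to 60.5%, which overlapped all 3 others. Within 22Rv1 the mono-cultures without RANKL had 51.0, 51.5 and 50.4%, above the 42.06 to 47.4% of the other 6 libraries. The share of the proximal start was lower in the mono-cultures without RANKL than in the other 6 libraries of every line, without overlap. It was 14.1 to 22.3% against 23.6 to 32.2% in 22Rv1 and 9.50 to 12.9% against 15.2 to 20.9% in C4-2. In C4-2B it was 8.49 to 11.4% against 17.97 to 20.7%, and in DU145 6.19 to 20.2% against 22.8 to 41.3%. Those mono-cultures are the deeper set of libraries in each line, so depth and culture cannot be told apart here. The division of counts between transcripts that share exons is an estimate of the quantification.

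**Figure D2:**
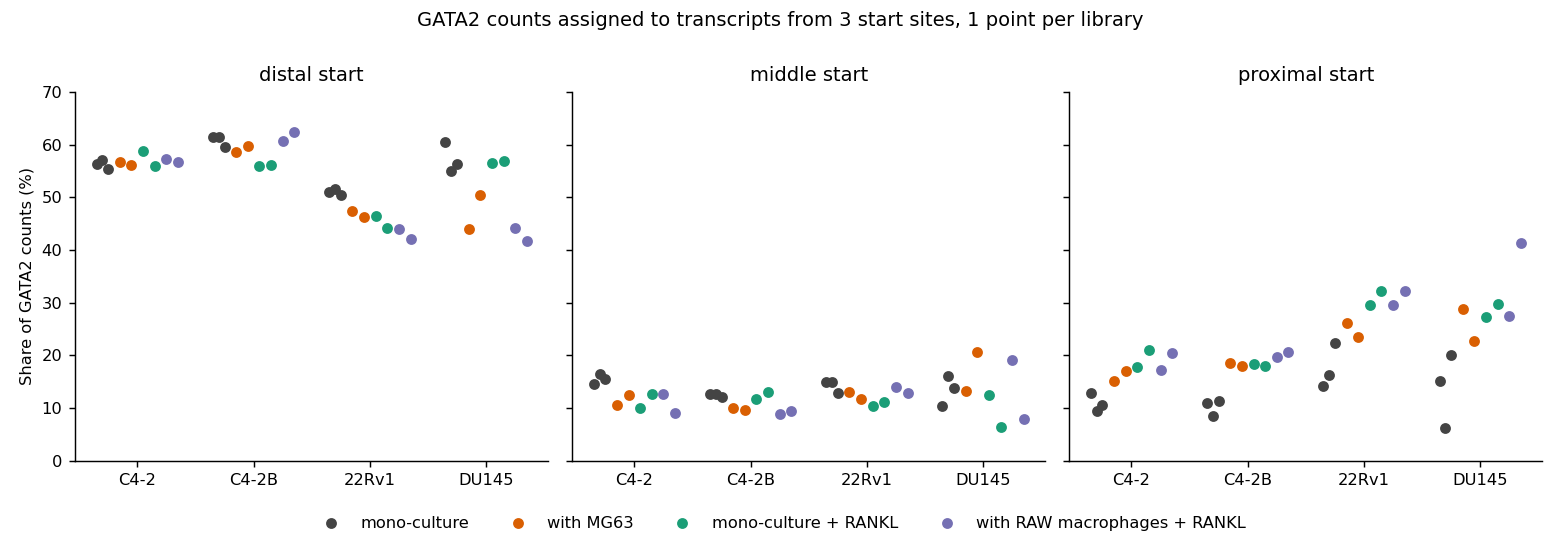
Share of GATA2 counts in percent at the distal, middle and proximal starts for each sample, by line and culture, without the remaining share of GATA2-204 and GATA2-205. The distal share of 22Rv1 lies between 42.06 and 51.5%, below the 55.4 to 62.4% of C4-2 and C4-2B.

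GATA3 (chr10:8045378-8075203, plus strand) was found in 22Rv1 and was at or near the detection limit elsewhere. It stood at 7.40, 7.84 and 8.44 CPM in 22Rv1 mono-cultures. In C4-2 the mono-cultures had 0.555, 0.0682 and 0.121 CPM, in C4-2B 0.103, 0.0209 and 0.0194, and in DU145 0.280, 0.186 and 0.134. Outside 22Rv1 no library of any culture held more than 18.6 counts of it, and it was at or under 3 counts in 6, 7 and 5 of the 9 libraries of C4-2, C4-2B and DU145. All 9 libraries of 22Rv1 were above every library of the other lines, and no fold is given against lines at or near the limit. Calls among the other 3 lines turned on these few counts. In the fit of the 20 samples without RANKL edgeR called none. C4-2B minus C4-2 and DU145 minus C4-2B were called by edgeR in a fit of all 36 samples and by DESeq2, and in 3 and 4 of the 20 fits that each left out 1 sample.

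GRHL2, on chromosome 8, was highest in the BPCa lines. It stood at 24.0, 19.8 and 19.5 CPM in C4-2 and 24.1, 20.3 and 25.2 in C4-2B, which overlapped (0.18 ± 0.12, not called). 22Rv1 had 6.78, 7.91 and 5.32 CPM, a difference of −1.72 ± 0.13 from C4-2 (adjusted p = 3.51e-09). DU145 had 0.386, 0.537 and 0.526 CPM, between 1.53 and 16.5 counts in its 9 libraries, and DU145 minus C4-2 was −5.50 ± 0.18. Most of the DU145 counts were of transcripts that are not coding: the main coding transcript, GRHL2-202, held at most 0.197 counts in any DU145 library, and the retained-intron transcript GRHL2-203 up to 16.5. With coding transcripts alone the fitted difference was −11.76, which is no bound, as DU145 is then under 3 counts. Its list of epithelial genes also holds ZEB1, ZEB2, SNAI1, SNAI2, TWIST1 and VIM, which are mesenchymal genes or repressors of epithelial genes. A count over this mixed list therefore does not measure the epithelial program alone. Of 19 listed genes tested in DU145 minus C4-2, 15 were lower and 2 higher, with a median difference of −3.35 where the median of all genes was 0.00 and 78.3% of all genes were called. CDH1, the E-cadherin gene, had a median of 13.6 CPM in DU145 and 242 in C4-2, and ZEB1, a repressor of it, had 14.0 and 1.51.

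SOX9 (chr17:72121020-72126420, plus strand) did not follow the luminal factors. In mono-culture it stood at 16.7, 17.2 and 15.2 CPM in 22Rv1, 12.8, 12.8 and 14.1 in C4-2B, 6.57, 6.14 and 6.36 in C4-2, and 3.54, 3.52 and 3.28 in DU145. All 4 lines were apart. C4-2B exceeded C4-2 by 1.105 ± 0.07 (adjusted p = 3.9e-08), the largest difference of any tested member between these sister lines that was called. 22Rv1 exceeded C4-2B by 0.21 ± 0.07 (adjusted p = 0.0142). This call was lost without 22Rv1 mono replicate 2 (adjusted p = 0.0629) or C4-2B mono replicate 1 (0.0701), with no filter (0.0750) and with length scaling (0.183), and the value turned to −0.080 in MG63 co-cultures (0.481).

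SOX2 (chr3:181711924-181714436, plus strand) and TP63 (chr3:189631416-189897279, plus strand) were at traces. SOX2 had 0.381, 0.123 and 0.277 CPM in 22Rv1 mono-cultures and between 0.277 and 0.908 CPM in the other 22Rv1 libraries, at most 9.55 counts, and 8 of the 9 were above 3 counts. All 9 C4-2 libraries, all 9 C4-2B libraries and 8 of 9 DU145 libraries had 3 counts or fewer. With no filter on counts, the adjusted p of SOX2 was 0.0126 for 22Rv1 minus C4-2B, 0.0572 for 22Rv1 minus C4-2 and 0.230 for DU145 minus 22Rv1, and no fold is given against a line under the limit. TP63 reached at most 0.809 CPM, in C4-2 RAW264.7 replicate 2 (9.67 counts), and at most 25.4 counts, in C4-2 mono replicate 1 (0.757 CPM). It was at 0 in 10 of 36 libraries. Of the few TP63 counts, 96.5% were assigned to the 8 transcripts of the internal ΔN start and 3.48% to the 6 transcripts of the upstream start. The basal keratin gene KRT5 stayed at or under 0.246 CPM in every library. Of 10 listed genes of the basal and p63 program tested, 7 were higher in DU145 than in C4-2 and 3 lower (median 4.06), where 78.3% of all genes were called. ITGB4, a hemidesmosome integrin gene, was among the higher ones (4.78 ± 0.22).

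On the per-length scale (TPM, which divides counts by transcript length and sets every library to the same total), FOXA1 was the most abundant of the 8 in every line. Its mean in mono-culture was 165 TPM in 22Rv1, 165 in C4-2, 163 in C4-2B and 23.2 in DU145. GATA2 came next, with 68.9, 126, 139 and 17.9 TPM, and HOXB13 had 29.6, 37.5, 45.6 and 0.108. GRHL2 had 5.70, 14.3, 16.2 and 0.526 TPM and SOX9 had 4.09, 1.62, 3.37 and 0.8996. DU145 thus kept FOXA1 above GATA2, and SOX9 came next in place of HOXB13.

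Counted over the 6 comparisons between lines, 29 of 36 values were called. They were 3 of 6 for C4-2B minus C4-2 (all higher), 5 of 6 for 22Rv1 minus C4-2, 5 for 22Rv1 minus C4-2B, 5 for DU145 minus C4-2, 5 for DU145 minus C4-2B and 6 for DU145 minus 22Rv1. The same calls were made for 13.6%, 72.0%, 72.5%, 78.3%, 79.0% and 79.6% of all genes tested. Calls of the members were thus near the background in the 5 comparisons with 22Rv1 or DU145, and 3 of 6 stood against 13.6% between the sister lines. The average of the BPCa lines minus that of the LPCa lines was called for all 6 genes (79.8% of all genes), with HOXB13 at 4.58 ± 0.07, GRHL2 at 3.70 ± 0.11, GATA2 at 1.96 ± 0.05, FOXA1 at 1.42 ± 0.04 and SOX9 at 0.35 ± 0.05. GATA3, tested only because of its level in 22Rv1, is counted here and in the comparisons with 22Rv1. That average does not describe either LPCa line: FOXA1 in 22Rv1 was at the BPCa level, and GATA3 in DU145 was at 0.134 to 0.280 CPM, far from the 7.40 to 8.44 of 22Rv1.

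**Figure D3:**
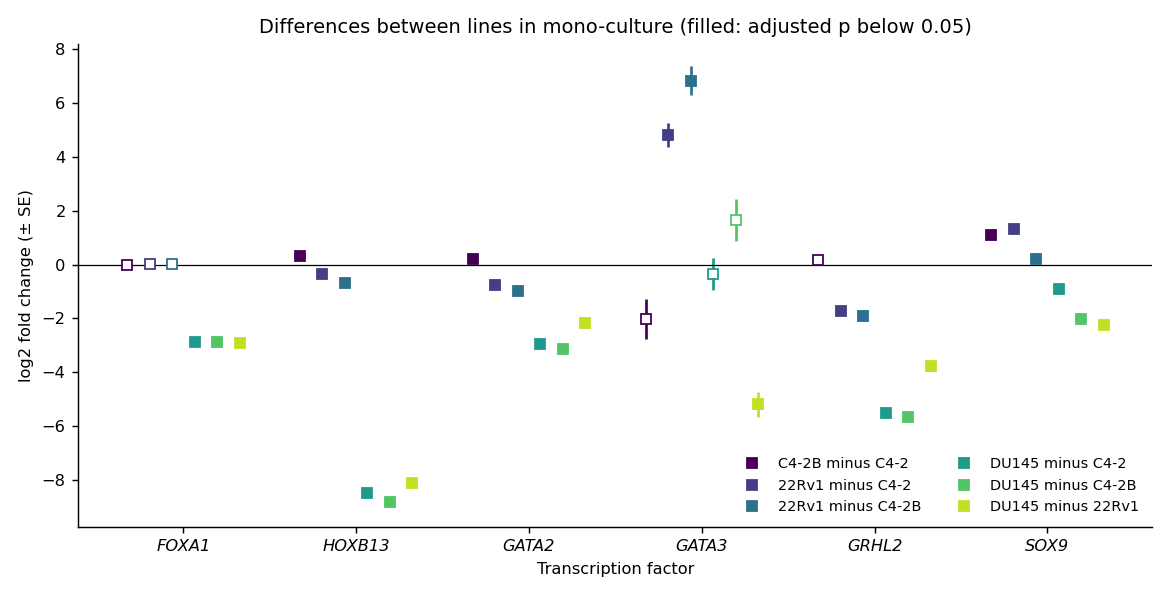
Log2 fold changes between pairs of lines in mono-culture without RANKL for the 6 tested genes, with bars of 1 SE; filled points passed an adjusted p of 0.05. HOXB13 in DU145 lies between −8.81 and −8.11, and FOXA1 among C4-2, C4-2B and 22Rv1 lies between 0.00 and 0.04.

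Other luminal genes were counted in the same comparisons. Of 14 luminal partner genes tested, 10 were lower and 4 higher in DU145 than in C4-2 (median −4.71), and all 7 markers of luminal prostate cancer were lower, where 78.3% of all genes were called. KLK3, which encodes PSA, had a median of 3795 CPM in C4-2 and 3908 in C4-2B against 101 in 22Rv1 and 7.13 in DU145. Of 6 neuroendocrine markers tested, 5 were higher and 1, DDC, was lower in 22Rv1 than in C4-2 (median 5.03, against 0.01 for all genes, of which 72.0% were called). SYP, a synaptic vesicle protein gene, had a median of 28.5 CPM in 22Rv1 and between 0.894 and 0.965 in the other lines. INSM1, a neuroendocrine regulator, was at most 0.102 CPM in any library, and CHGA did not exceed 1.57 CPM. Of 9 listed neuroendocrine regulators tested, 6 were higher and 2 lower in 22Rv1 than in C4-2, near the share of all genes called. The list also holds REST, a repressor of neural genes, so its count mixes regulators of both kinds. REST, named here after its values were seen, had a median of 26.5 CPM in 22Rv1 and 13.04 in C4-2. Most other regulators that were higher in 22Rv1 are not named here. NKX2-1, a lung and neuroendocrine factor, had a median of 131 CPM in DU145 and at most 1.102 in any other line. Of 3 tested genes among partners of SOX2, KLF4 was higher (1.95 ± 0.13), SALL4 higher (2.51 ± 0.70) and POU5F1 lower (−0.87 ± 0.15) in 22Rv1 than in C4-2. Of 18 paralogs tested in 22Rv1 minus C4-2, 10 were higher and 5 lower, again near that share.

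Co-culture with MG63 addresses the response of the cancer cells to osteoblast-like cells. Of 24 values for the 6 tested genes in 4 lines, 7 were called, 6 higher and 1 lower. They were 2 of 6 in C4-2, 1 in C4-2B, 3 in 22Rv1 and 1 in DU145, where 10.1%, 7.41%, 20.4% and 30.5% of all genes tested were called. SOX9 in C4-2 was the largest of them. It rose from 6.57, 6.14 and 6.36 CPM in mono-culture to 14.9 and 13.8 CPM with MG63, by 1.28 ± 0.08 (adjusted p = 1.36e-07), or by 1.22 with the mono-cultures thinned. The groups did not overlap, and the co-cultures were near the level of C4-2B mono-cultures and below every 22Rv1 mono-culture. SOX9 in C4-2B went from 12.8, 12.8 and 14.1 CPM to 15.97 and 15.99, a rise of 0.33 ± 0.08 (adjusted p = 0.0197) that was no longer called when the mono-cultures were thinned (0.31, adjusted p = 0.0764), nor without any 1 of C4-2B mono replicates 1 and 2 and C4-2B MG63 replicates 1 and 2. In 22Rv1, where SOX9 was highest from the start, it had 15.6 and 15.5 CPM with MG63 (0.04 ± 0.08), and DU145 had 4.22 and 3.64 CPM (0.26 ± 0.11, not called). With MG63 present, C4-2B and C4-2 were 0.15 apart in SOX9 (adjusted p = 0.397).

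GATA2 was higher with MG63 in 3 of 4 lines by the test. It went from 239.5, 236 and 235 to 269.8 and 272 CPM in C4-2 (0.30 ± 0.07, adjusted p = 0.0122), and from 143, 144.9 and 143 to 158 and 175 CPM in 22Rv1 (0.33 ± 0.07, adjusted p = 0.00452). These groups did not overlap. The C4-2 call was lost without either C4-2 MG63 replicate (adjusted p = 0.0622 and 0.102), and the 22Rv1 call without 22Rv1 MG63 replicate 2 (0.22, adjusted p = 0.121). Against the RANKL mono-cultures, which are of like depth to the co-cultures, the C4-2 value turned to −0.06 (adjusted p = 0.779). With library totals the C4-2 rise was 0.19 (adjusted p = 0.0586), and with counts scaled for transcript length neither was called (adjusted p = 0.304 and 0.202). In DU145 the co-cultures had 37.4 and 32.1 CPM against 29.4 to 33.5 in mono-culture, which overlapped. The rise of 0.22 ± 0.08 (adjusted p = 0.0446) was 0.09 (adjusted p = 0.426) without DU145 MG63 replicate 1 and 0.33 without replicate 2, and its call was lost in 12 of 20 fits with 1 sample left out and in 6 of 13 other settings. GATA2 in C4-2B, at 295 and 283 CPM, was 0.19 ± 0.07 higher and not called (adjusted p = 0.124).

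In 22Rv1, FOXA1 and HOXB13 also passed the test with MG63. FOXA1 fell from 268, 289 and 274 CPM to 219 and 209, a difference of −0.26 ± 0.07 (adjusted p = 0.0138), and HOXB13 rose from 101, 108 and 104 CPM to 134 and 124, by 0.42 ± 0.08 (adjusted p = 0.00136). Neither pair of groups overlapped. The FOXA1 call was lost without 22Rv1 mono replicate 2 (adjusted p = 0.0513), MG63 replicate 1 (0.0614) or MG63 replicate 2 (0.0914). The difference in FOXA1 was −0.06 when counts were scaled for transcript length, and its response did not pass the test of a difference between lines (adjusted p = 0.308). GRHL2 in 22Rv1, at 8.88 and 7.57 CPM with MG63, was 0.42 ± 0.16 higher and not called (adjusted p = 0.0698). Around it, 8 of 19 genes of the mixed epithelial and mesenchymal list rose and 3 fell in 22Rv1. The median was 0.31 where that of all genes was 0.00, and 20.4% of all genes were called. CDH1 rose by 0.31 ± 0.08 and ZEB1 fell by 1.19 on the log2 scale. In DU145, 6 of the 19 fell, near the 30.5% of all genes called there, and the median was 0.00. CDH1 was among the 6 (−0.81 ± 0.12). The DU145 co-cultures were unlike each other: the 4 epithelial markers summed to 867.7 and 1465 CPM, against 1053 to 1082 CPM in mono-culture. Of the 7 luminal prostate cancer markers, 4 rose and 3 fell in 22Rv1, with KLK3 at 0.99 ± 0.09, while 4 of 7 fell in C4-2B, where 7.41% of all genes were called.

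MG63 cells are human, so their RNA could not be separated by species. Markers of MG63 summed to between 8.36 and 12.96 CPM in the C4-2 co-cultures and to between 8.66 and 9.36 in C4-2 mono-cultures, and 6 of the 10 were at or under 3 counts in every C4-2 co-culture. COL1A2 was at most 0.0582 CPM and POSTN was at 0 there. Of the 4 marker genes tested in C4-2, 0 were called, with a median of 0.37, where 10.1% of all genes were called. In C4-2B the sums were 8.88 to 8.99 against 8.55 to 8.94 CPM, and in DU145 5.16 to 7.80 against 5.15 to 7.51. In 22Rv1 they were 51.5 to 56.1 CPM with MG63 and 38.1 to 41.99 without, and TWIST1, which 22Rv1 expresses in mono-culture, made up 40.6 to 43.7 and 27.3 to 30.4 CPM of them. Of the 4 marker genes tested in 22Rv1, 2 rose, where 20.4% of all genes were called. The part of MG63 RNA in the results of any line was not tested.

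RANKL in mono-culture was compared with the same mono-cultures without it, so these values share their control samples with those for MG63. Of 24 values, 8 were called, 5 higher and 3 lower. They were 2 of 6 in C4-2, 2 in C4-2B, 1 in 22Rv1 and 3 in DU145, where 18.3%, 14.4%, 17.7% and 32.5% of all genes tested were called. The largest was GATA3 in 22Rv1. It rose from 7.40, 7.84 and 8.44 CPM to 42.6 and 47.9 CPM, 5.73 times the mean level, or by 2.54 ± 0.24 (adjusted p = 3.94e-08), with no overlap. The 22Rv1 libraries with RAW264.7 and RANKL had 41.9 and 45.9 CPM, and those with MG63 had 8.75 and 8.30. In the other 3 lines GATA3 with RANKL stayed between 0.0463 and 0.199 CPM. With the mono-cultures thinned as above, the rise was 2.60 (adjusted p = 1.22e-08), and it was called in each of the 11 other settings and 20 fits with 1 sample left out.

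Both main GATA3 transcripts took part. GATA3-201 went from a mean of 2.97 CPM in 22Rv1 mono-cultures to 20.8 with RANKL, and GATA3-202 from 3.80 to 21.4. The window before their start region is printed because it ends at the base before the GENCODE start of GATA3-202 (8054653), with that of GATA3-201 at 8054810. It is part of the RefSeq entry for a start at 8054688, which is that of GATA3-206 and lies inside GATA3-202. It covers chr10:8054438-8054652 on the plus strand of GRCh38.p14, from RefSeq, with CG dinucleotides in capitals.
GATA3 upstream window: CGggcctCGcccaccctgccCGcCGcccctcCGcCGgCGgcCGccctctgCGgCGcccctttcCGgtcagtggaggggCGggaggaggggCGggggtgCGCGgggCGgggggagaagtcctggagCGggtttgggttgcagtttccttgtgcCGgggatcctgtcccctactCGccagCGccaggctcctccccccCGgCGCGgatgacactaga
These 215 bases held 23 CG dinucleotides, and the full 250-base window, which runs past the start of GATA3-202, had 26, with 82.3% of promoter windows holding as many or fewer. Entries were found for 5 of the 8 genes. HOXB13, SOX9 and GRHL2 are named only.

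DU145 changed in FOXA1, SOX9 and GATA2 with RANKL. FOXA1 rose from 34.3, 36.7 and 37.0 CPM to 64.3 and 62.4, 1.76 times the mean level (0.92 ± 0.06, adjusted p = 2.96e-11). SOX9 rose from 3.54, 3.52 and 3.28 CPM to 6.15 and 7.26 (1.06 ± 0.11, adjusted p = 9.89e-08). GATA2 fell from 33.5, 31.4 and 29.4 CPM to 18.6 and 21.2, 0.633 of the mean level (−0.56 ± 0.09, adjusted p = 4.41e-05). None of these groups overlapped, and with the mono-cultures thinned the values were 0.87, 0.86 and −0.57. The RAW264.7 co-cultures of DU145, which also held RANKL, had 65.0 and 62.6 CPM of FOXA1, 7.18 and 5.54 of SOX9, and 23.0 and 21.6 of GATA2. With RANKL in both, DU145 and C4-2 were −0.16 apart in SOX9 (adjusted p = 0.383), against −0.91 without it. HOXB13 in DU145 had 0.391 and 0.736 CPM (0.66 ± 0.30, not called) and GRHL2 had 0.273 and 0.222 CPM. With RANKL, FOXA1 in DU145 was still below the lowest value of the other lines, the 207 CPM of C4-2B.

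Epithelial genes rose in DU145 in the same comparison, and luminal genes moved both ways. All 4 epithelial markers rose (median 1.02), with EPCAM going from between 14.5 and 21.6 CPM to between 84.5 and 89.9 CPM (2.42 ± 0.13, adjusted p = 7.2e-13) and CDH1 by 1.06 ± 0.11. Of 19 genes of the mixed epithelial and mesenchymal list, which include EPCAM and CDH1, 9 rose and 1 fell. The median was 0.41 against −0.01 for all genes, of which 32.5% were called. Of the luminal partners, 4 rose and 3 fell among 14 (median 0.00), and of the 7 luminal prostate cancer markers 2 rose and 1 fell (median 0.03). Among the 4 that rose were SPDEF, an ETS factor of luminal cells (2.66 ± 0.14), and the splicing factor gene ESRP1 (2.60 ± 0.16). SPDEF reached between 5.49 and 5.91 CPM and ESRP1 between 3.41 and 3.42, against medians of 123 and 73.0 in C4-2. Of 11 basal genes tested, 3 rose and none fell, which is near the share of all genes called.

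In C4-2 and C4-2B the called differences with RANKL were at most 0.36 in size on the log2 scale. In C4-2, GATA2 went from 239.5, 236 and 235 CPM to 299 and 273 (0.36 ± 0.08, adjusted p = 0.00192) and HOXB13 from 129, 128 and 131 CPM to 148 and 143 (0.26 ± 0.07, adjusted p = 0.00924). Without C4-2 RANKL replicate 1 these were 0.29 (adjusted p = 0.0669) and 0.23 (adjusted p = 0.112), and neither was called. The HOXB13 call was also lost with library totals (0.17, adjusted p = 0.0668), no filter (0.0746) and length scaling (0.0657), and the GATA2 call with length scaling (0.274). In C4-2B, FOXA1 fell from 247, 244 and 266 CPM to 207 and 207 (−0.20 ± 0.06, adjusted p = 0.0194), and with RLE normalization this was −0.17 (adjusted p = 0.0538). The call was also lost without C4-2B mono replicate 3 (adjusted p = 0.0791), RANKL replicate 1 (0.149) or RANKL replicate 2 (0.0957). HOXB13 in C4-2B fell from 156, 158 and 161 to 127 and 133 CPM (−0.20 ± 0.07, adjusted p = 0.0484), a call lost in 19 of 20 fits with 1 sample left out and with the mono-cultures thinned (−0.19, adjusted p = 0.117). These groups did not overlap in CPM. With RANKL the HOXB13 order of the sister lines turned, from 0.34 higher in C4-2B to −0.11, which was not called (adjusted p = 0.531).

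In 22Rv1, some genes of the HOXB cluster rose with RANKL while HOXB13 did not pass the test. HOXB13 had 97.0 and 97.1 CPM with RANKL (−0.08 ± 0.07), whereas HOXB8 rose from between 1.85 and 2.40 CPM to between 13.4 and 14.2 (2.72 ± 0.41), HOXB9 by 1.49 ± 0.19 and HOXB5 by 1.23 ± 0.15. HOXB3 was 0.12 ± 0.29 and not called, and the HOXB genes are named here by size of change. Of 18 paralogs tested there, 6 rose and 1, SOX4, fell, where 17.7% of all genes were called. Of the 7 luminal prostate cancer markers, 2 rose and 2 fell in 22Rv1 (median 0.08), against that share. Their sum was 1146 to 1238 CPM without RANKL and 1024 to 1026 CPM with it. KLK3 was higher by 0.80 on the log2 scale. Of 6 neuroendocrine markers, 2 fell in 22Rv1, SNAP25 (−0.99 ± 0.22) and SCG3 (−0.38 ± 0.08), with the same share over all genes.

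**Figure D4:**
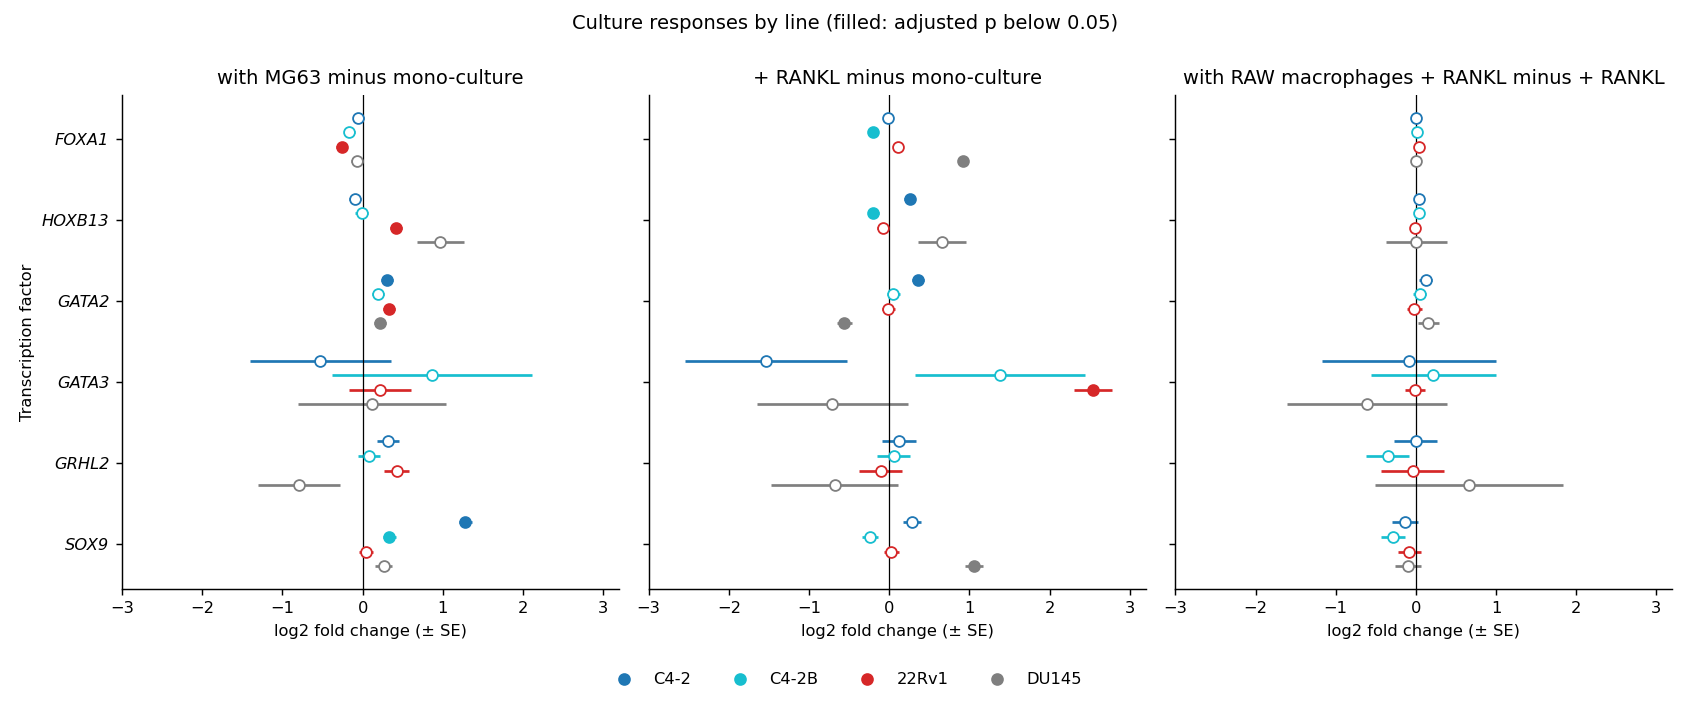
Log2 fold changes of the 6 tested genes with MG63 (against mono-culture), with RANKL (against mono-culture without it) and with RAW264.7 (against RANKL alone) in each line, with bars of 1 SE; filled points passed an adjusted p of 0.05. GATA3 with RANKL in 22Rv1 is at 2.54, SOX9 with MG63 in C4-2 at 1.28, and no point passed with RAW264.7.

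RAW264.7 co-cultures were compared with RANKL alone, both with RANKL and of like depth. By edgeR's quasi-likelihood test none of the 24 values passed an adjusted p of 0.05, 0 had an unadjusted p under 0.05, and DESeq2 called 0 of those it gave an adjusted p. Of all genes tested 0.00868% were called in C4-2, 0.139% in C4-2B, 0.00868% in 22Rv1 and 0.0260% in DU145. GATA3 in 22Rv1 differed by −0.01 ± 0.13 and FOXA1 in DU145 by 0.00 ± 0.07. The largest difference of SOX9 was in C4-2B, with 8.40 and 8.91 CPM against 10.1 and 11.1 (−0.29 ± 0.15, adjusted p = 0.832). Macrophage and osteoclast markers summed to between 12.4 and 67.6 CPM over the RAW264.7 co-cultures and to between 13.6 and 67.4 CPM over the RANKL mono-cultures. TYROBP and AIF1, defining macrophage genes, were at 0 in every library. RAW264.7 is a mouse line, and the table is of human transcripts.

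Whether a response was equal in the 4 lines was tested in 1 model. With MG63, 2 of 6 genes differed between lines (14.5% of all genes), SOX9 (adjusted p = 4.13e-05) and HOXB13 (adjusted p = 0.00729). With RANKL, 5 of 6 differed (32.6% of all genes): FOXA1 (1.06e-09), SOX9 (2.54e-06), GATA2 (2.83e-05), GATA3 (0.0012) and HOXB13 (0.0018), all adjusted p. For GATA3 no response could be measured outside 22Rv1, since the libraries of the other lines with RANKL held 0.608 to 2.64 counts, so its test shows no difference between measured responses. With RAW264.7 none differed by edgeR (0.0347% of all genes), and the lowest unadjusted p, that of GATA2, was 0.637. GATA2 with RANKL was higher in C4-2 and lower in DU145, and HOXB13 was higher in C4-2 and lower in C4-2B.

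The genes most like each member were found by the correlation of log2(CPM + 1) over the 16 means of line and culture, among 13453 other genes. These means share lines and libraries, so r is a description. FOXA1 was most like PLEKHA5 (r = 0.997), ESRP1 (0.996) and CDS1 (0.994). HOXB13 was most like MAGEA6 (0.999), MAGEA3 and MAGEA2. GATA2 was most like DRG2 (0.994), FOLH1 and PEX16, GATA3 most like CFC1 (0.996), TMTC1 and UGT1A1, and GRHL2 most like RAI1 (0.995), GRTP1 and FAM83F. SOX9 stood alone, with RPL12 at 0.916, ZNF710 at 0.897 and FAM47E-STBD1 at 0.893. It had 1 gene with r above 0.9, whereas the other 5 had between 504 and 1063.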

How the data were processed

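RNA-seq libraries of 36 cultures were made from poly-A RNA with a strand-specific kit and sequenced on a DNBSEQ instrument. The authors deposited estimated counts per transcript from kallisto. The submitters' processing notes also name FastQC and the build hg19. The table had 161149 lines and 159837 transcripts, and transcripts listed more than once were used once. Counts were summed by gene symbol over 27852 genes, and the 6878 transcripts without a symbol (0.526 to 0.764% of the counts of a sample) stayed in the library totals only. Gene coordinates were taken from GENCODE 29 (GRCh38), in which 95.4% of the transcripts were found, and promoter sequences from RefSeq on GRCh38.p14.

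The estimated counts were rounded and tested with edgeR 4.0.16 in R 4.3.3 (TMM, quasi-likelihood test), with 1 mean per line and culture and a gene entered with 100 or more counts in any sample. The fit of the 20 samples without RANKL held 13437 genes and gave the line and MG63 comparisons. The fit of all 36 samples held 13454 genes and gave the RANKL comparisons, and the fit of the 16 samples with RANKL held 11525 genes and gave those with RAW264.7. A call needed a Benjamini-Hochberg adjusted p under 0.05 over all genes of a fit. Alternatives changed the normalization, filter, tool (DESeq2 1.42.0), samples fitted, threshold, transcripts counted, length scaling, depth and control, added the replicate number as a block, or left out each sample in turn. The procedure was tested on simulated data whose changes were larger than most of those called here with MG63 or RANKL. It does not show how well smaller differences are recovered. Tables were made with Python 3.11.15, numpy 2.4.6, pandas 2.3.3 and scipy 1.17.1, and figures with matplotlib 3.10.9.

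The members and the lists of luminal, neuroendocrine, basal, epithelial and pluripotency genes, paralogs and cell markers were chosen with earlier results of these data known. All members are named, and from a list only its most abundant genes, up to 4 called in a culture comparison, and its defining genes, with the 3 genes most like each member. Some genes of these lists are counted with their list but not reported here by name.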

Additional observations from a re-analysis of the deposited data

Results flagged for a closer look

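The test of an equal response over the 4 lines picked out 7 results, given with their adjusted p (edgeR, Benjamini-Hochberg). For MG63 these were SOX9 (4.13e-05), whose difference was 1.28 in C4-2, 0.33 in C4-2B, 0.04 in 22Rv1 and 0.26 in DU145, and HOXB13 (0.00729), at −0.10, −0.01, 0.42 and 0.97 in the same order. For RANKL, FOXA1 (1.06e-09) differed by −0.01 in C4-2, −0.20 in C4-2B, 0.11 in 22Rv1 and 0.92 in DU145. SOX9 (2.54e-06) differed by 0.28, −0.24, 0.03 and 1.06 in that order, and GATA2 (2.83e-05) by 0.36, 0.05, −0.01 and −0.56. GATA3 (0.0012) differed by 2.54 in 22Rv1, and its values in the other lines rest on at most 18.6 counts per library, so no response could be measured there. HOXB13 (0.0018) differed by 0.26, −0.20, −0.08 and 0.66, where the last value and the 0.97 with MG63 are of a gene at or under 1.05 CPM in DU145.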

How the results depend on the processing

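Calls of members between lines (29 of 36) and between BPCa and LPCa (6 of 6) stayed within 1.5 times their number in every setting tried, and the order of the 4 lines per length was that of CPM in 7 of 8 members. The 7 MG63 calls (6 higher, 1 lower) were 4 (3 higher, 1 lower) with library totals and no normalization factor, 1 at a fold above 2 with an unadjusted p under 0.05, 2 with counts scaled for transcript length, and 10 (5 higher, 5 lower) with RANKL mono-cultures as control. The 8 RANKL calls (5 higher, 3 lower) were 2 at that fold threshold, 4 with length scaling, 6 (5 higher, 1 lower) with RLE normalization, and 8 (4 higher, 4 lower) with library totals. Library totals moved the median of all genes to between −0.13 and 0.11. Genes whose MG63 response differed between lines numbered 2, and 1 with length scaling, 5 with RANKL mono-cultures as control, and 1 with thinned mono-cultures. With 1 sample left out, the calls ranged from 27 to 30 between lines, 6 to 6 between BPCa and LPCa, 5 to 11 with MG63, 5 to 8 with RANKL and 0 to 0 with RAW264.7, and responses differing between lines from 2 to 3, 5 to 5 and 0 to 0 in the last 3. The 11 MG63 calls came without DU145 MG63 replicate 1, and without replicate 2 there were 10. The 5 RANKL calls came without C4-2 RANKL replicate 1.

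With RANKL in both lines, GATA2 and HOXB13 in C4-2B minus C4-2 were −0.093 and −0.11, and SOX9 in BPCa minus LPCa was −0.15. In MG63 co-cultures HOXB13 in 22Rv1 minus C4-2 was 0.15 and SOX9 in 22Rv1 minus C4-2B was −0.080. Against RANKL mono-cultures, the MG63 values of GATA2 in C4-2, GATA3 in 22Rv1 and SOX9 in DU145 were −0.057, −2.33 and −0.75. The cause was not tested. With the replicate number as a block, 28 values were called between lines, 6 between BPCa and LPCa, 6 with MG63, 7 with RANKL and 0 with RAW264.7. Samples with the same number did not deviate together (mean r −0.0328 for MG63, 0.0186 for RANKL and 0.0188 for RAW264.7, over 8 pairs each).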
